A study of Mus musculus with 16 samples.

Results

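A set of 9 genes tied to Alzheimer's disease risk or to processing of the amyloid precursor protein were followed in the hippocampus of a tauopathy mouse: App, Bace1, Psen2, Sorl1, Picalm, Bin1, Cd2ap, Clu and Abca7. They were taken by symbol, and all 9 matched 1 row each among the 49671 gene rows of the deposited count table. Bulk RNA-seq was run on total RNA of hippocampus from female mice of 8 months, with 16 libraries in 4 groups of 4. PS19_p16KO carries the PS19 tau transgene and the p16 knockout, PS19 carries the transgene with the wildtype p16 gene, p16KO carries the knockout without the transgene, and WT is wildtype at both. The PS19 transgene encodes mutant human tau and is driven by the mouse prion protein promoter. The labels used here give neither the strain background nor how the p16 knockout was made. The 4 groups allow the transgene and the knockout to be compared alone, together and for dependence on each other. Libraries are named by group and replicate number, and the labels do not state that those of a group came from different animals. Every p-value therefore reflects the spread among the libraries, which may be technical in part.

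The amyloid precursor protein is a membrane protein of neurons. Cut first by beta-secretase and then by gamma-secretase it releases amyloid-beta, the peptide that builds plaques, while alpha-secretase cuts within that peptide and prevents its release. Where the protein travels inside the cell decides which enzyme meets it, and several genes near human risk variants encode proteins of endocytosis, sorting and lipid transport. PS19 mice deposit tau rather than amyloid, so these genes were measured here in a tissue whose pathology comes from the other hallmark protein of the disease.

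Clu, which encodes the secreted chaperone clusterin, was higher in PS19 hippocampus than in WT hippocampus, by 1.47-fold. It was the only one of the 9 genes to pass the test across all genes in that comparison, where 1.61% of all genes tested passed. The Clu call held in 10 of 12 alternative analyses and in 11 of 16 fits that each left out 1 library. Every left-out library that ended the call belonged to PS19 or WT, the compared groups. The fitted folds of the other genes ran from 0.916 for Psen2 to 1.1 for Cd2ap. With p16 missing as well, Clu stood at 0.767 of its PS19 level, a difference that did not pass over all genes tested. App, Bace1, Psen2, Sorl1, Picalm, Bin1, Cd2ap and Abca7 passed in none of the comparisons made.

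Libraries held 18485552 to 22311322 gene counts, and 16372 genes were tested, the 9 genes among them. Levels below are in CPM, the usual unit of RNA-seq counts set relative to a library's total, here its TMM-scaled total of gene counts. All 9 fixed markers of hippocampal neurons were detected in every group, with summed levels of 1209 to 1413 CPM in PS19_p16KO, 1159 to 1341 CPM in PS19, 1299 to 1380 CPM in p16KO and 1253 to 1355 CPM in WT. Cdkn2a, the gene of p16, had 2 counts in all over the PS19_p16KO libraries, 18 over PS19, 3 over p16KO and 8 over WT. Prnp, whose promoter drives the transgene, stood at 1872 CPM ± 60.8 in PS19_p16KO and 1769 CPM ± 224 in PS19, against 1066 CPM ± 7.27 in p16KO and 1023 CPM ± 36.1 in WT (SD, n = 4 each). The 7 choroid plexus markers summed to 5628 CPM in PS19_p16KO library 3, 3330 CPM in p16KO library 4 and 829 CPM in WT library 1, and to 36.6 to 196 CPM in the other 13 libraries. For Sorl1, Cd2ap, Clu and Abca7, values without these 3 libraries are given beside some of the results below.

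Levels were first put on a scale that allows the genes to be compared with each other, CPM per kilobase of exon. Clu was highest, with a mean of 258 CPM per kilobase ± 52.7 (SD, n = 16 libraries), followed by App at 174 ± 7.21. Bin1 followed at 65.9 CPM per kilobase ± 1.67, Sorl1 at 46.7 ± 3.74, Bace1 at 17 ± 0.943 and Picalm at 8.56 ± 0.323. The lowest were Psen2 at 3.68 CPM per kilobase ± 0.378, Abca7 at 2.74 ± 0.331 and Cd2ap at 1.06 ± 0.154. The ranges of neighbours in this order overlapped only for Psen2, at 3.16 to 4.58 CPM per kilobase, and Abca7, at 2.34 to 3.52. With the longest transcript in place of all exons, Abca7 and Cd2ap changed places, at 2.76 and 3.01 CPM per kilobase, and the other 7 genes kept theirs. Across the 16 libraries Bin1 varied least and Clu most, with coefficients of variation of 2.54% and 20.4% on the CPM scale.

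**Figure D1:**
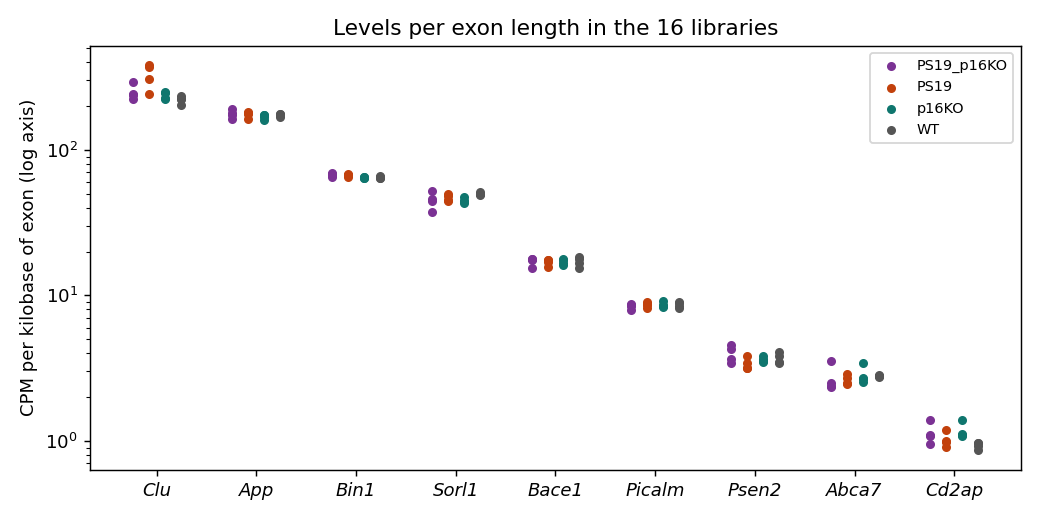
Level of each gene in each of the 16 libraries, in CPM per kilobase of exon on a log axis, with genes ordered by their mean and libraries coloured by group. Clu and App lie highest, at means of 258 and 174 CPM per kilobase, and Cd2ap lowest at 1.06.

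The substrate was considered first. App (ENSMUSG00000022892, GRCm38 chromosome 16, 84949685 to 85173766, minus strand) encodes the amyloid precursor protein. Its level was 2259, 2314, 2128 and 2470 CPM in PS19_p16KO libraries 1 to 4, and 2313, 2119, 2359 and 2300 CPM in PS19. In p16KO it was 2099, 2200, 2258 and 2257 CPM, and in WT 2276, 2264, 2199 and 2275 CPM. The groups overlapped in every pairing. The fitted change was 1.01-fold in PS19 against WT (95% interval 0.938 to 1.08), 1.01-fold in PS19_p16KO against PS19 (0.938 to 1.08), 0.978-fold in p16KO against WT (0.91 to 1.05) and 1.04-fold in PS19_p16KO against p16KO (0.968 to 1.12). App had 704928 counts over the 16 libraries, and its intervals over these 4 comparisons reached from 0.91 to 1.12.

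The enzymes that make amyloid-beta from it were Bace1 and Psen2. Bace1 (ENSMUSG00000032086, chromosome 9, 45838580 to 45864399, plus strand) encodes beta-secretase, the aspartyl protease of the first cut. It stood at 109 CPM ± 7.41 in PS19_p16KO, 107 ± 5.16 in PS19, 109 ± 5.03 in p16KO and 108 ± 8.41 in WT (SD, n = 4 each), and single libraries ran from 97.7 to 117 CPM, both ends of this range being WT libraries. The changes were 0.992-fold in PS19 against WT (95% interval 0.909 to 1.08) and 1.01-fold in PS19_p16KO against PS19 (0.928 to 1.11). The exons of Bace1 share 975 bases with Rnf214 on the opposite strand, and 951 and 135 bases with the antisense models Gm49338 and Gm16536. The sources used here do not give the strand setting of the counting, so reads of these neighbours and of Bace1 may be shared.

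Psen2 (ENSMUSG00000010609, chromosome 1, 180227004 to 180263438, minus strand) encodes presenilin 2, a catalytic subunit of gamma-secretase, the complex of the second cut. It was low, with 4991 counts over the 16 libraries. Libraries 1 to 4 had 18.4, 14.9, 19.8 and 15.8 CPM in PS19_p16KO, 13.7, 16.5, 13.8 and 14.9 CPM in PS19, 15.4, 15.01, 15.8 and 16.7 CPM in p16KO, and 15.2, 14.9, 16.6 and 17.7 CPM in WT. The 2 highest values were those of PS19_p16KO libraries 1 and 3, and the 2 lowest were PS19 libraries 1 and 3. PS19_p16KO library 3, the highest, was also the one richest in choroid plexus markers, and their part in the Psen2 level was not tested. The difference of PS19_p16KO from PS19 was 1.17-fold (log2 0.23 ± 0.09 SE, 95% interval of the fold 1.02 to 1.34, unadjusted p = 0.0266, adjusted p = 0.452 in edgeR's quasi-likelihood test), with overlap between the groups. Over 28 alternative fits this log2 difference ran from 0.16 to 0.29, and it passed in 0.

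Sorl1 (ENSMUSG00000049313, chromosome 9, 41964720 to 42124297, minus strand) encodes a sorting receptor that steers the precursor protein away from the compartments where it is cut. Libraries 1 to 4 had 507, 588, 421 and 524 CPM in PS19_p16KO, 509.6, 507, 566 and 544 CPM in PS19, 486, 537, 507 and 500.3 CPM in p16KO, and 560.5, 582, 561 and 558 CPM in WT. All 4 p16KO libraries lay below all 4 WT libraries, while PS19_p16KO held both the highest and the lowest of the 16 values. In p16KO Sorl1 was at 0.898 of WT (log2 -0.16 ± 0.07 SE, 95% interval of the fold 0.809 to 0.996, unadjusted p = 0.0432), and this did not pass over all genes in edgeR's test (adjusted p = 0.999). Over all tested genes 2.94% had no overlap between p16KO and WT. Averaged over the transgene, the 8 libraries with the knockout were at 0.928 of the 8 without it (unadjusted p = 0.0472, adjusted p = 0.621, edgeR). The lowest value, 421 CPM, was that of PS19_p16KO library 3, the one richest in choroid plexus markers. Without the 3 libraries rich in those markers the p16KO difference from WT was log2 -0.16, the PS19_p16KO difference from PS19 was 0.03, against -0.06 with them, and the average knockout difference was -0.06, against -0.11 with them.

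Picalm, Bin1 and Cd2ap encode proteins of endocytosis. Picalm (ENSMUSG00000039361, chromosome 7, 90130213 to 90213465, plus strand) is an adaptor that helps clathrin coats form, and Bin1 (ENSMUSG00000024381, chromosome 18, 32377230 to 32435737, plus strand) belongs to the amphiphysin family, which binds and bends membranes. Picalm averaged 132 CPM ± 5.38 in PS19_p16KO, 135 ± 5.2 in PS19, 135 ± 5.59 in p16KO and 136 ± 5.73 in WT (SD, n = 4 each). Bin1 averaged 277 CPM ± 6.85, 275 ± 5.26, 266 ± 2.49 and 267 ± 4.86 in the same order of groups. The Bin1 libraries of PS19_p16KO, from 269.1 to 285 CPM, lay just above those of p16KO, from 263 to 269 CPM, with no overlap, and 2.8% of all tested genes had no overlap in that comparison. The Bin1 difference there was 1.04-fold (95% interval 0.984 to 1.1, adjusted p = 0.999 in edgeR's test). In PS19 against WT the 95% interval of the fold was 0.934 to 1.07 for Picalm and 0.976 to 1.09 for Bin1. Exons of Bin1 share 256 bases with A830052D11Rik on the opposite strand, a gene with 254 counts in all.

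Cd2ap (ENSMUSG00000061665, chromosome 17, 42792951 to 42876665, minus strand) encodes an adaptor that ties membrane proteins to the actin skeleton. Its levels were 15.2, 17.4, 22.05 and 17 CPM in PS19_p16KO libraries 1 to 4, 18.8, 15.6, 14.4 and 15.9 CPM in PS19, 17.1, 17.8, 17.4 and 22 CPM in p16KO, and 15.3, 15.4, 13.7 and 14.7 CPM in WT. Every p16KO library was above every WT library, and 2.94% of all tested genes had no overlap in that comparison. The 2 highest values were PS19_p16KO library 3 and p16KO library 4, the libraries with the most choroid plexus RNA. The p16KO difference from WT was 1.26-fold (log2 0.33 ± 0.11 SE, unadjusted p = 0.00712), and the average knockout difference over both transgene states was 1.18-fold (unadjusted p = 0.00617). Neither passed over all genes in edgeR's test (adjusted p = 0.926 and 0.331). Without the 3 libraries rich in choroid plexus markers these log2 differences were 0.25 and 0.15, against 0.33 and 0.24 with them.

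Clu (ENSMUSG00000022037, chromosome 14, 65968483 to 65981547, plus strand) encodes clusterin, also called apolipoprotein J, a secreted chaperone made mainly by astrocytes in the brain. In PS19 libraries 1 to 4 it stood at 1312, 1272, 833 and 1048 CPM, against 802, 697, 768 and 769 CPM in WT. All 4 PS19 values lay above all 4 WT values, library 3 by the smallest margin, and 5.04% of all tested genes had no overlap in this comparison. Clu rose 1.47-fold in PS19 (log2 0.56 ± 0.12 SE, 95% interval of the fold 1.24 to 1.74, adjusted p = 0.0195 in edgeR's quasi-likelihood test), averaging 1116 CPM ± 222 in PS19 and 759 CPM ± 44.6 in WT (SD, n = 4 each). This was the 1 call among the 9 genes, where 264 of all 16372 genes tested were called, or 1.61%. The call was lost in edgeR's test on leaving out PS19 library 1 or 2 or WT library 2, 3 or 4, one at a time, with adjusted p of 0.0796, 0.1, 0.0876, 0.0545 and 0.0591 in that order, in a fit restricted to those 2 groups (adjusted p = 0.138) and with no filter on low counts (adjusted p = 0.0684). Without PS19 library 3, the lowest of its group, it was log2 0.67 with an adjusted p of 8.3e-05.

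**Figure D2:**
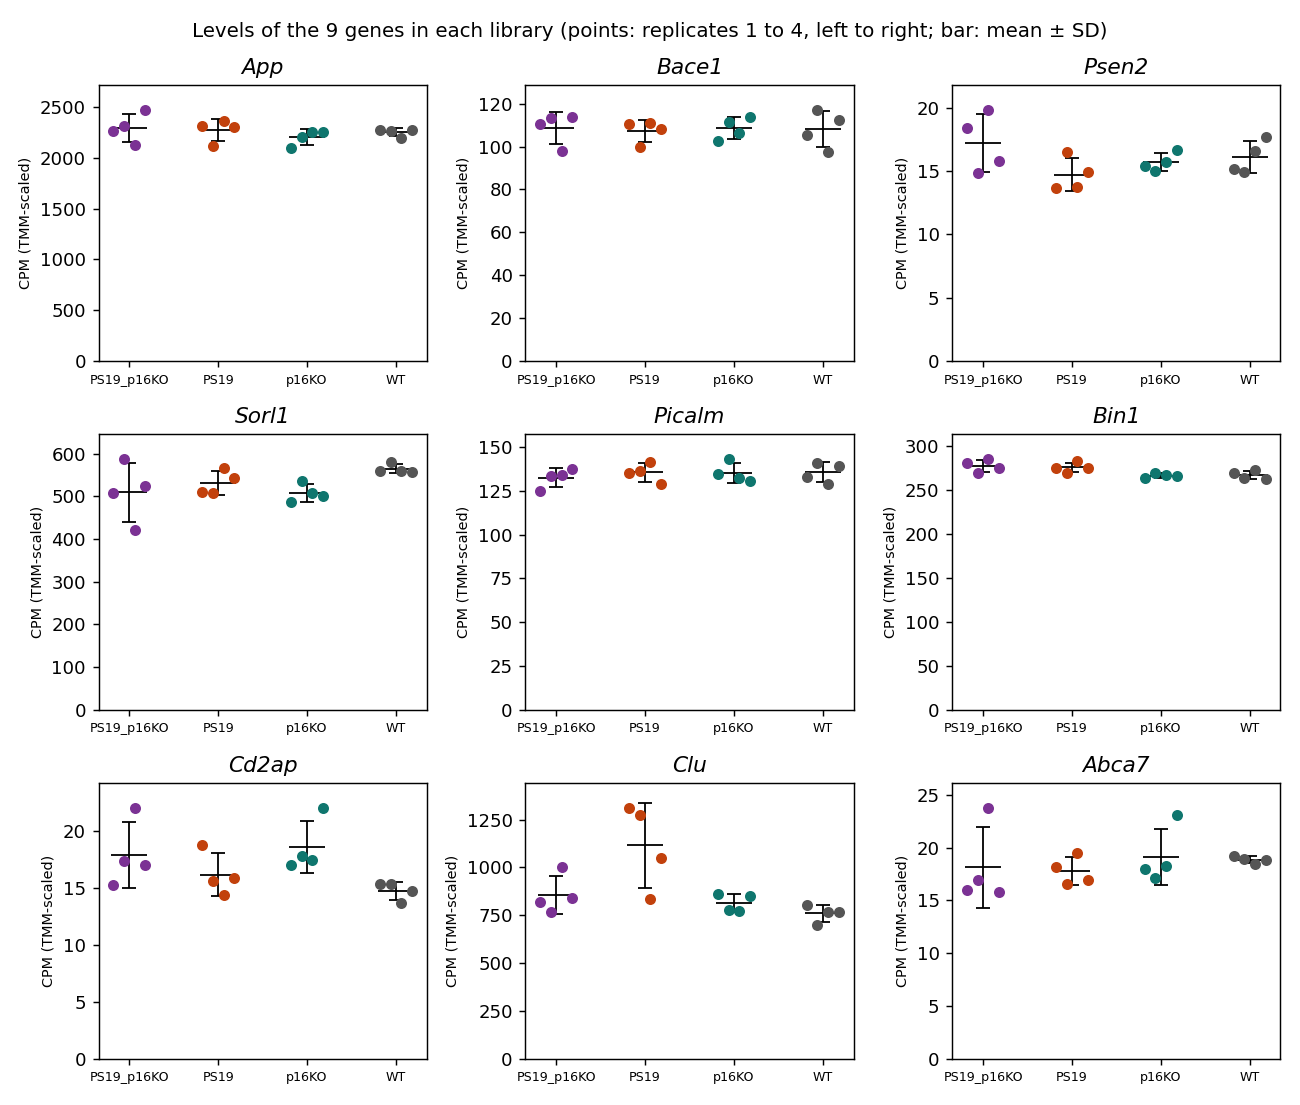
Level of each of the 9 genes in each library, in CPM on TMM-scaled library sizes, with a point per library, the group mean and bars of 1 SD (n = 4 libraries each), and groups in the order PS19_p16KO, PS19, p16KO and WT. The 4 PS19 points of Clu, from 833 to 1312 CPM, lie above the 4 WT points, from 697 to 802 CPM.

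With the knockout added to the transgene, Clu was at 0.767 of its PS19 level, and the difference did not pass. PS19_p16KO libraries 1 to 4 had 818, 767, 1001 and 838 CPM, with a mean of 856 CPM ± 101 (SD, n = 4). PS19 libraries 1, 2 and 4 lay above all of these, and PS19 library 3 lay below 2 of them. The fitted difference was log2 -0.38 ± 0.12 SE (95% interval of the fold 0.647 to 0.909, unadjusted p = 0.00442, adjusted p = 0.185 in edgeR's test). Of all genes tested 0.825% were called in this comparison, and none of the 9 was. At an unadjusted p under 0.05 stood 2 of the 9 genes, Clu and Psen2, and 8.59% of all genes. DESeq2 called 1 of the 9, Clu, with an adjusted p of 0.0298, and limma-voom called 0. Without PS19 library 3, edgeR's adjusted p for Clu was 0.00262, and without PS19 library 1 or 2 it was 0.47 and 0.593 in that order. This comparison and the one of PS19 with WT share the PS19 libraries.

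Without the transgene, Clu stood at 860.3, 778, 771 and 848 CPM in p16KO libraries 1 to 4, overlapping the WT range. The fold of p16KO over WT was 1.07 (95% interval 0.906 to 1.27), and that of PS19_p16KO over p16KO was 1.05 (0.887 to 1.25). On the log2 scale the second difference was 0.07, against 0.0088 without the 3 libraries rich in choroid plexus markers and -0.013 without PS19_p16KO library 3 alone. The difference between the knockout effects with and without the transgene, the interaction, was log2 -0.48 ± 0.16 SE for Clu (unadjusted p = 0.00911, adjusted p = 0.474 in edgeR's test), and it did not pass. Without PS19 library 3 its adjusted p in edgeR's test was 0.0147, and without PS19 library 1 or 2 it was 0.805 and 0.943 in that order. Averaged over p16 genotype, Clu was 1.24-fold higher with the transgene (95% interval 1.1 to 1.4). The adjusted p of this average was 0.135 in edgeR's test and 0.00935 in DESeq2. In edgeR's test it was 0.00153 without PS19 library 3, 0.281 without PS19 library 1 and 0.255 without PS19 library 2.

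Marker levels of several cell types moved with Clu. The 8 astrocyte markers, none at 0 in any library, summed to 4672 to 5659 CPM in PS19_p16KO, 6126 to 8607 CPM in PS19, 4914 to 5777 CPM in p16KO and 5362 to 5640 CPM in WT. Within this sum Gfap ran from 448 to 2750 CPM and Slc1a2 from 2151 to 3765 CPM over the 16 libraries. The 10 microglia markers, also with none at 0, summed to 411 to 468 CPM in PS19_p16KO, 496 to 1059 CPM in PS19, 378 to 457 CPM in p16KO and 349.6 to 388 CPM in WT. Of these markers 1 of 8 and 8 of 10 were called higher in PS19 against WT, where 1.56% of all genes were. The log2 differences there ran from 0.07 to 1.84 for the astrocyte markers, with a median of 0.20. For the microglia markers they ran from -0.01 to 1.59, with a median of 0.95. The 9 oligodendrocyte markers summed to 3182 to 4134 CPM in PS19_p16KO, 3125 to 4235 CPM in PS19, 3256 to 3715 CPM in p16KO and 2506 to 3624 CPM in WT. In PS19 against WT 0 of them were called and 7 stood at an unadjusted p under 0.05 in edgeR's test, with a median log2 difference of 0.34. At that unadjusted p stood 7 of the 8 astrocyte markers, 8 of the 10 microglia markers and 1567 of all 16372 genes tested. The 8 general neuron markers summed to 7155 to 8053 CPM in PS19_p16KO, 6847 to 7752 CPM in PS19, 7479 to 7987 CPM in p16KO and 7534 to 8436 CPM in WT. With the group means taken out, Pearson's r of Clu with the mean standardised log2 marker level of each cell type was taken over the 16 libraries. It was 0.66 for microglia, 0.51 for astrocytes, 0.48 for choroid plexus and 0.27 for oligodendrocyte precursors. For oligodendrocytes it was 0.058, for endothelium -0.00048, for mural cells -0.095, for neurons -0.62 and for hippocampal neurons -0.66. These values describe libraries in which all these genes share one total. Within PS19 the libraries stood in the same order for Clu and for both sums, with library 1 highest, then 2, 4 and 3. The part of the marker levels in the Clu difference was not tested, and in bulk tissue fewer cells of a type and less RNA per cell cannot be told apart. PS19_p16KO library 3, highest of its group for Clu, had the lowest astrocyte sum of all libraries and the highest choroid plexus sum. Without the 3 libraries rich in choroid plexus markers, Clu was log2 0.58 higher in PS19 than in WT (adjusted p = 0.038, edgeR) and differed by log2 -0.46 between PS19_p16KO and PS19 (adjusted p = 0.17, edgeR).

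**Figure D3:**
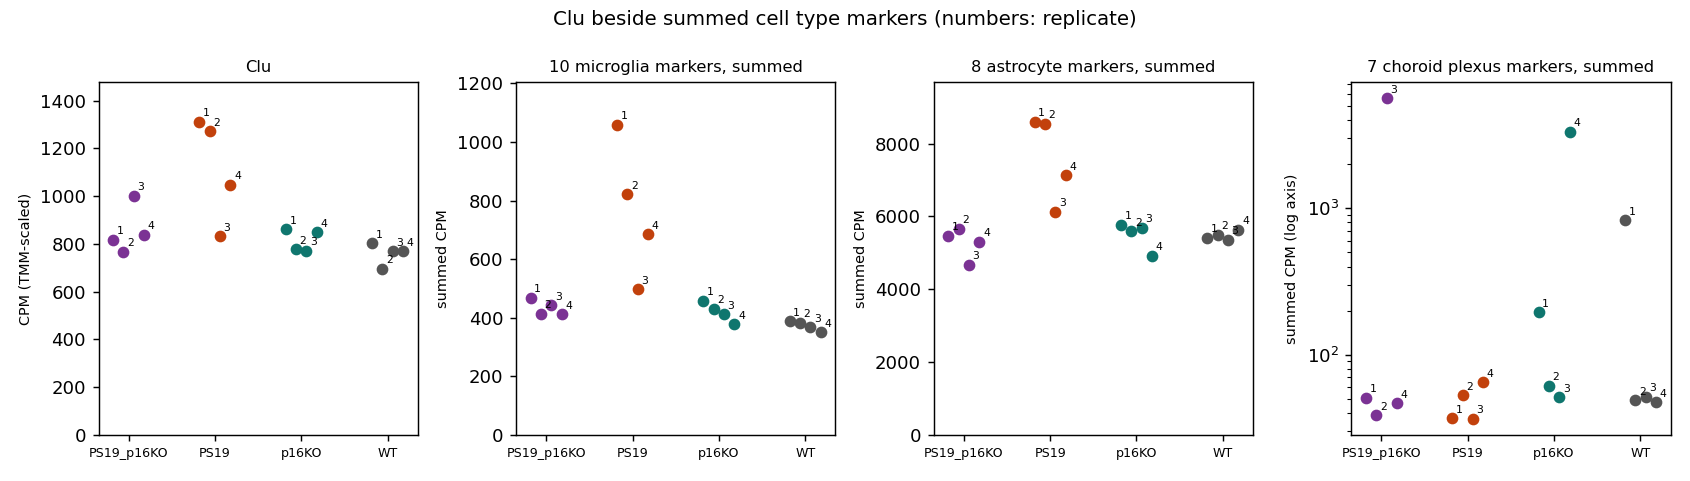
From left to right, the level of Clu and the summed levels of the microglia, astrocyte and choroid plexus markers in each library, in CPM (log axis for choroid plexus), with libraries by group and numbered by replicate. PS19 libraries 1 and 2 lie highest for Clu, at 1312 and 1272 CPM, and highest for the microglia and astrocyte sums, while PS19_p16KO library 3 and p16KO library 4 stand apart in the choroid plexus sum, at 5628 and 3330 CPM.

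Abca7 (ENSMUSG00000035722, chromosome 10, 79996494 to 80015572, plus strand) encodes a transporter that moves lipids across membranes. It was among the lower genes, with 5776 counts over the 16 libraries. Libraries 1 to 4 had 16.03, 16.9, 23.8 and 15.8 CPM in PS19_p16KO, 18.2, 16.6, 19.5 and 16.9 CPM in PS19, 17.95, 17.2, 18.3 and 23.1 CPM in p16KO, and 19.2, 18.9, 18.4 and 18.8 CPM in WT. The 2 highest values belonged to the 2 libraries richest in choroid plexus markers, PS19_p16KO library 3 and p16KO library 4, and their part in the Abca7 level was not tested. The fold was 0.944 in PS19 against WT (95% interval 0.799 to 1.12) and 1.02 in PS19_p16KO against PS19 (0.861 to 1.2). Without the 3 libraries rich in those markers the log2 difference of PS19_p16KO from PS19 was -0.13, against 0.03 with them.

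Over the 9 genes the counts were as follows. In PS19 against WT 1 gene was called higher and 0 lower, against 1.56% and 0.055% of all genes, with a median log2 difference of -0.00050 against -0.0051 over all 16372 genes tested. In p16KO against WT 0 of the 9 genes were called by edgeR, and 0% of all genes, while 2 of the 9, Cd2ap and Sorl1, and 3.99% of all genes stood at an unadjusted p under 0.05. In PS19_p16KO against p16KO 0 were called, with 0 at an unadjusted p under 0.05, where 0.0183% and 3.65% of all genes stood. In the interaction 0 were called and 1, Clu, was at an unadjusted p under 0.05, against 0.00611% and 5.44% of all genes. For the average transgene effect 0 were called by edgeR and 1, Clu, was at an unadjusted p under 0.05, against 0.391% and 10% of all genes. For the average knockout effect 0 were called and 2, Cd2ap and Sorl1, were at an unadjusted p under 0.05, against 0.226% and 7.96% of all genes. DESeq2 and limma-voom called 0 of the 9 in p16KO against WT, in PS19_p16KO against p16KO and in the interaction.

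**Figure D4:**
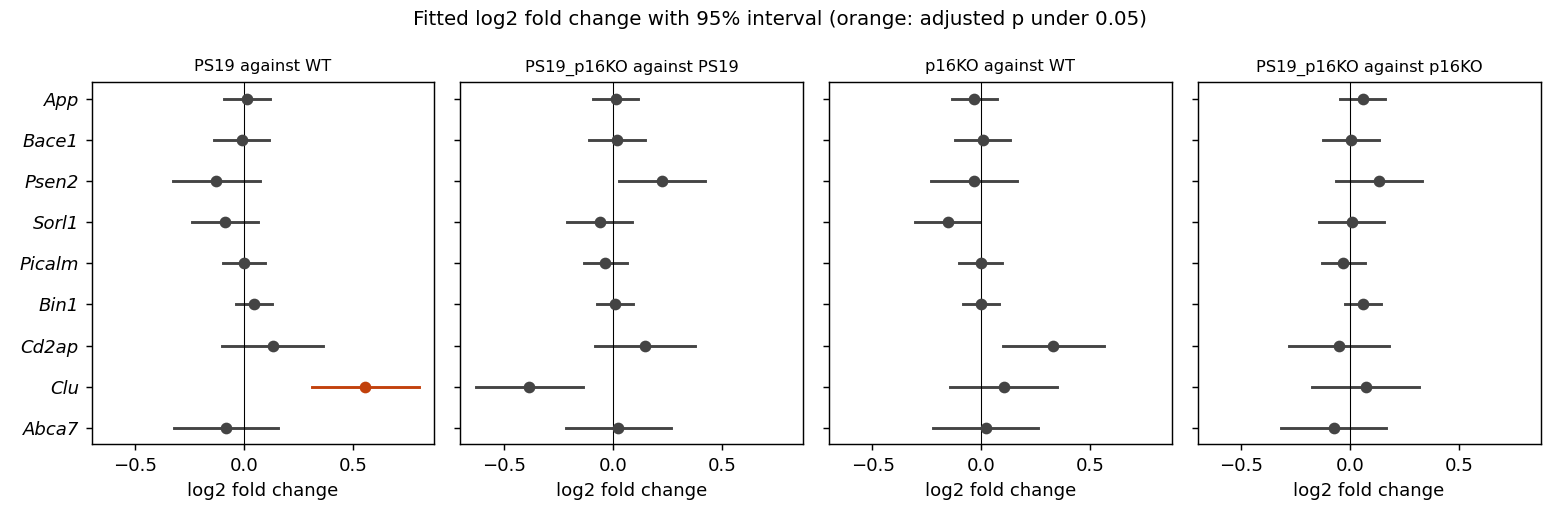
Fitted log2 difference of each of the 9 genes in the 4 pairwise comparisons, with bars of the 95% interval and orange where the adjusted p of edgeR's test was under 0.05. Clu in PS19 against WT, at 0.56, is the only orange point.

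The partners of these genes in the same pathways were read from lists of other genes. The 4 other alpha- and beta-secretase genes had 0 calls in PS19 against WT, with a median log2 difference of 0.04. Adam10, the main alpha-secretase of neurons, was at log2 0.01 ± 0.05 SE there, and Adam17, a second one, at 0.40 ± 0.11 SE (adjusted p = 0.0705, edgeR). The 6 gamma-secretase genes, the 9 homologues and adaptors of App, the 9 sorting receptors and retromer subunits, the 8 amyloid clearance genes and the 23 genes of clathrin endocytosis also had 0 calls, with medians of 0.07, 0.02, -0.02, -0.02 and 0.01 in that order. Apoe, the lipoprotein of the clearance list, was at log2 0.63 ± 0.15 SE in PS19 against WT (adjusted p = 0.0558, edgeR) and at -0.51 ± 0.15 SE in PS19_p16KO against PS19 (adjusted p = 0.19, edgeR). None of these 6 lists had a call in PS19_p16KO against PS19 either. Of all genes 1.61% were called in the first comparison and 0.825% in the second, shares at which lists this short would hold few calls or none. At an unadjusted p under 0.05 in edgeR's test the lists had, in the order given, 1, 0, 0, 0, 2 and 4 genes in the first comparison. In the second they had 2, 0, 1, 0, 4 and 2. Of all 16372 genes 1567 and 1406 stood there.

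Calls stood in the lists of lipid export transporters and of other Alzheimer risk genes. Abca1, which loads lipid onto apolipoproteins, was 1 of 5 transporters called in PS19 against WT. It averaged 48.6 CPM ± 4.36 in PS19_p16KO, 80.8 ± 16.7 in PS19, 55.3 ± 7.98 in p16KO and 50.05 ± 4.31 in WT (SD, n = 4 each). It rose 1.61-fold in PS19 against WT (adjusted p = 0.0128, edgeR) and fell to 0.602 of the PS19 level in PS19_p16KO (adjusted p = 0.0175, edgeR). Of the 34 other risk genes 32 were tested. Of these 6 were called higher in PS19 against WT and 3 lower in PS19_p16KO against PS19, with medians over the 32 of 0.10 and -0.05, where 1.56% of all genes were called higher in the first comparison and 0.776% lower in the second.

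Of those risk genes Trem2, a receptor of microglia for lipids and lipoproteins, had the largest fold of the 4 with the smallest adjusted p. Trem2 averaged 12.1 CPM ± 1.82 in PS19_p16KO, 31.6 ± 12.99 in PS19, 11.6 ± 2.4 in p16KO and 10.8 ± 0.813 in WT (SD, n = 4 each). It rose 2.94-fold in PS19 against WT (adjusted p = 0.00575, edgeR) and fell to 0.382 of PS19 in PS19_p16KO (adjusted p = 0.0227, edgeR). Inpp5d, a lipid phosphatase of blood-derived cells and microglia, rose 1.71-fold in PS19 against WT (adjusted p = 0.00352, edgeR) and fell to 0.621 of PS19 in PS19_p16KO (adjusted p = 0.0175, edgeR). Grn, which encodes the lysosomal protein progranulin, rose 1.7-fold in the first comparison (adjusted p = 0.00461, edgeR) and fell to 0.618 in the second (adjusted p = 0.0175, edgeR). Spi1, a transcription factor of myeloid cells, rose 1.92-fold in PS19 against WT (adjusted p = 0.011, edgeR). Cd33 and Ms4a6d were the other 2 genes called higher in PS19 against WT. The group means of these genes were highest in PS19, as were the microglia marker sums given above. The part of the marker levels in these differences was not tested. On leaving out 1 library at a time, Trem2, Inpp5d and Grn passed in PS19 against WT in 16 of 16 fits, Spi1 in 14 (not without PS19 library 1 or WT library 2) and Abca1 in 13 (not without PS19 library 2 or WT library 2 or 4). Some of the 16 fits left out a library of neither compared group, here and in the comparison below. Every call of these genes that was lost was lost on leaving out a compared library. A fit restricted to PS19 and WT ended the call of Trem2 (adjusted p = 0.114), Grn (0.105), Abca1 (0.091) and Spi1 (0.0612), and Inpp5d passed in it at 0.0488 (edgeR). In PS19_p16KO against PS19 Grn passed in 13 fits, Abca1 in 12, and Trem2 and Inpp5d in 11 each. All 4 lost that call without PS19 library 2 and without PS19_p16KO library 2 or 4, with adjusted p of 0.0584 to 0.0969 in edgeR's test. Abca1 and Trem2 also lost it without PS19_p16KO library 1, Trem2 and Inpp5d without PS19_p16KO library 3, and Inpp5d without PS19 library 1. A fit restricted to PS19_p16KO and PS19 called none of the 4, with adjusted p of 0.138 to 0.277 (edgeR), and without the 3 libraries rich in choroid plexus markers Trem2, Inpp5d and Grn did not pass (0.0921, 0.0848 and 0.0934). In the same comparison the call also ended with no filter on low counts for Abca1 and Grn (adjusted p = 0.0518 and 0.0576, edgeR), with the replicate number as a block for Abca1 (0.0504), with limma-voom for Inpp5d (0.0669), and for Trem2 with a term for a digit of the library names that recurs across the groups (0.0718, edgeR).

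**Figure D5:**
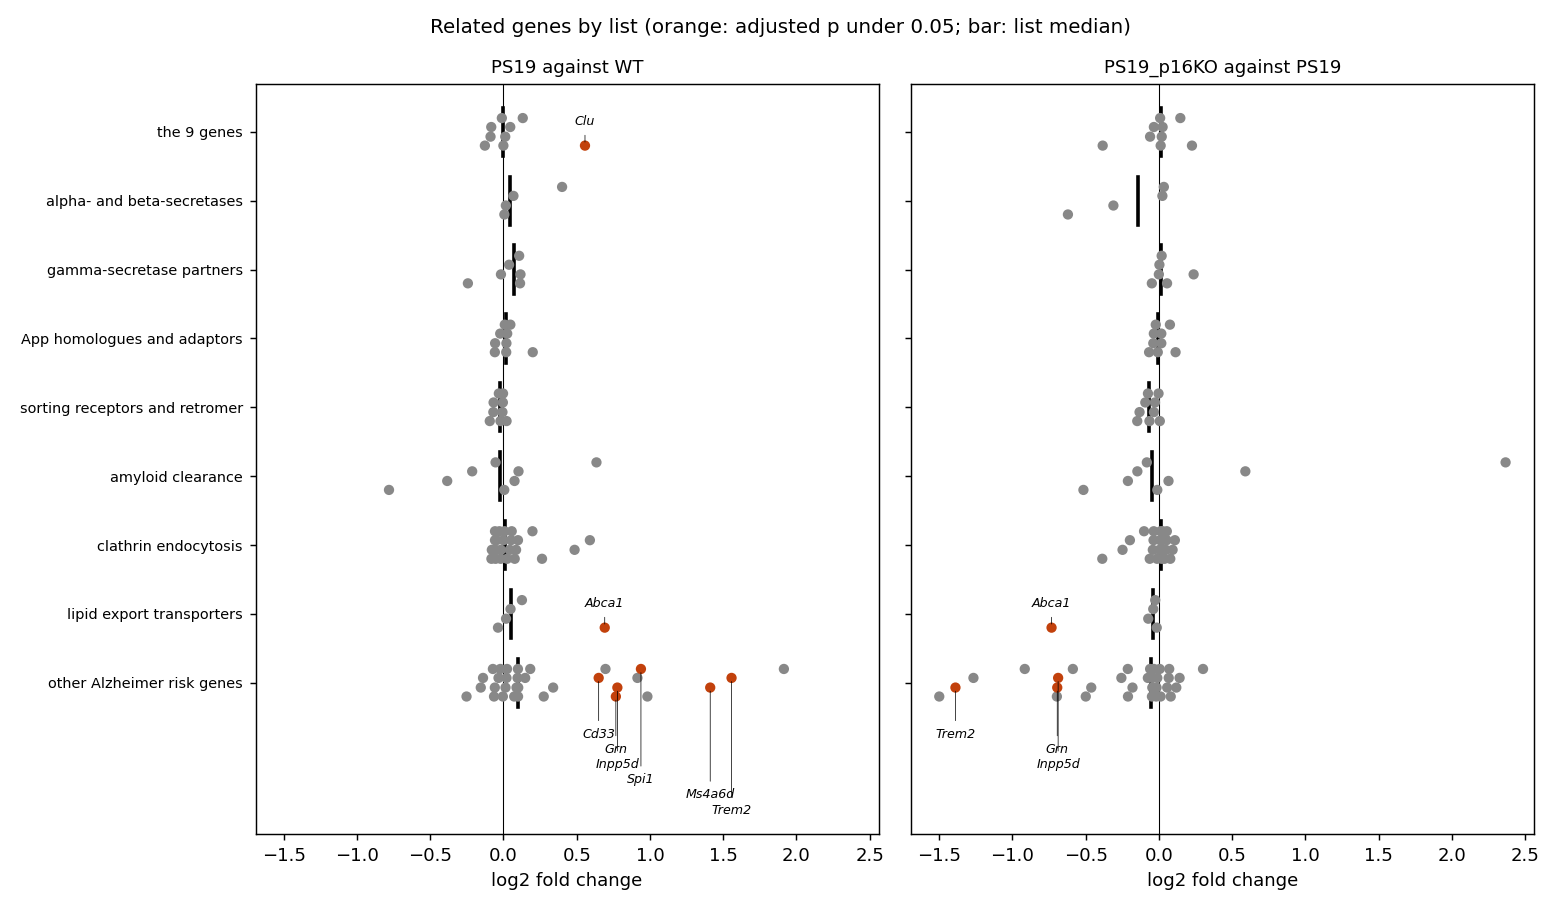
Log2 difference of every tested gene of the 8 pathway lists and of the 9 genes, in PS19 against WT and PS19_p16KO against PS19, with a point per gene, a bar at the list median, orange where the adjusted p of edgeR's test was under 0.05, and called genes named. Orange points stand in the rows of the 9 genes (Clu, PS19 against WT), the lipid export transporters (Abca1) and the other risk genes.

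Genes whose levels ran most like each of the 9 were ranked by Pearson's r of log2 CPM over the 16 libraries, among 11623 genes. These libraries share groups, so the values are descriptions. For Clu they were Tmem176b, Itgb5 and Cd9, with r of 0.977, 0.977 and 0.975. Sorl1 ran closest to Cacna1e (r = 0.94), Kctd16 (0.93) and Sipa1l1 (0.924), and Abca7 to Npr3 (0.912), Tm9sf1 (0.899) and Phactr2 (0.897). The nearest gene was Glcci1 for App (r = 0.905), Ccdc137 for Psen2 (0.885), Scn1a for Bace1 (0.881), Nans for Bin1 (0.88), Ppfibp2 for Cd2ap (0.865) and Triqk for Picalm (0.845). After the group means were taken out, r was 0.951 for Clu with Tmem176b and 0.952 for Sorl1 with Cacna1e.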

How the data were processed

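Counts per gene were deposited as 1 table of raw counts for 16 libraries, with 92 rows of ERCC spike-in RNA that entered neither library sizes nor tests. Trimmomatic 0.36, STAR 2.5.2b and featureCounts of Subread 1.5.2 on GRCm38 are named in the submitters' processing notes, with no role or order. The sources used here do not give the strand setting. Symbols came from GENCODE M21, and 49412 of 49671 gene rows had one.

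edgeR 4.0.16 in R 4.3.3 was used: TMM scaling, filterByExpr with a minimum count of 10, 1 robust quasi-likelihood fit over all 16 libraries with a mean per group, and Benjamini-Hochberg adjustment over the 16372 genes tested. A gene was called at an adjusted p under 0.05. Standard errors are the log2 difference divided by the square root of the F statistic. DESeq2 1.42.0 and limma-voom 3.58.1 were alternatives, with other scalings and filters, added terms and left-out libraries. Levels per kilobase used the union of exons.

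The members and gene lists were chosen with earlier results of these data known. All 9 genes are named, then up to 4 called genes of each list with the smallest adjusted p, and the 3 genes most like each of the 9 among those above a mean log2 CPM of 2. Partner genes without a call (Adam10, Adam17 and Apoe) were named after their values were seen.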

Additional observations from a re-analysis of the deposited data

Results flagged for a closer look

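Among the 36 sets of 4 libraries examined (9 genes in 4 groups), 4 held a library far from the others of its group, where chance gives about 1 in 20. Abca7 stood at 23.8 CPM in PS19_p16KO library 3, against 15.8 to 16.9 CPM in the other libraries of that group. Cd2ap stood at 21.98 CPM in p16KO library 4, with the others at 17.1 to 17.8 CPM. Both are the libraries richest in choroid plexus markers. App was at 2199 CPM in WT library 3, with the others at 2264 to 2276 CPM, and Sorl1 at 582 CPM in WT library 2, with the others at 558 to 561 CPM.

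The estimated knockout difference of Clu had opposite signs with and without the transgene. On the scale of mean log2 CPM it was -0.37 with the transgene and 0.10 without it. The fitted interaction was -0.48, and it did not pass over all genes (adjusted p = 0.474, edgeR).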

How the results depend on the processing

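The log2 difference of Clu in PS19 against WT kept its sign in all 28 alternatives, from 0.46 to 0.67, and passed in 21, with adjusted p from 6.76e-05 to 0.138. Of these alternatives 16 each left out 1 library, and Clu passed in 11 of those and in 10 of the other 12. The number of the 9 genes called there was 0 with no filter on low counts and 0 with only the compared groups in the fit, and 0 to 1 on leaving out 1 library at a time. In PS19_p16KO against PS19 DESeq2 called 1, and leaving out libraries gave 0 to 1. The average transgene effect had 1 call by DESeq2 and 0 to 1 on leaving out libraries, and the interaction 0 to 1. The cause was not tested. The other comparisons had 0 calls among the 9 under every alternative run. Of 62 differences that were not called, 5 of 1709 alternative values passed, and 124 changed sign, 117 of them within 1 SE. Over all genes, calls ran from 70 to 438 in PS19 against WT (264 as reported), 8 to 347 in PS19_p16KO against PS19 (135), 0 to 160 in the interaction (1), 15 to 206 for the average transgene effect (64), 10 to 119 for the average knockout effect (37), 0 to 18 in p16KO against WT (0) and 2 to 7 in PS19_p16KO against p16KO (3). Replicate numbers were shared between groups. With the group means taken out, 6 of 24 pairs of same-numbered libraries had a correlation over 0.1, with a range of -0.388 to 0.223. Pairs with different numbers were not compared, so these values cannot show whether same-numbered libraries deviated together. With the replicate block Clu in PS19 against WT was log2 0.55 (adjusted p = 0.0475, edgeR), and the block changed no call among the 9, while Abca1 in PS19_p16KO against PS19 no longer passed with it (adjusted p = 0.0504, edgeR). Psen2, Cd2ap and Abca7 had the lowest counts of the 9, with 4991, 5269 and 5776 over the 16 libraries.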
